A study of Mus musculus with 9 samples.

Results

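The 10 genes described here encode the calcineurin-NFAT signaling module, and they were chosen by symbol from the 43346 genes of the deposited table: the NFAT factors Nfatc1, Nfatc2, Nfatc3, Nfatc4, and Nfat5, the calcineurin subunits Ppp3ca, Ppp3cb, and Ppp3r1, and the calcineurin regulators Rcan1 and Rcan2. All 10 were found in the table, and all 10 passed the filter on low counts. Lung fibroblasts were sorted from male Col1a1-GFP transgenic mice on an FVB background, in which GFP marks cells with an active collagen I promoter, as GFP+ cells negative for CD45, CD31, and EpCAM. Aged sham mice (n = 4) received saline and aged bleo mice (n = 5) received a single dose of bleomycin into the trachea, and lungs were taken at day 30. The sample labels give the age of both groups as 72 weeks, and the description of the series gives 18 months. The libraries, 1 for each of the 4 and 5 animals that the series description counts, were made from poly(A) RNA and held 49921946 to 62370512 counted reads in aged sham and 53833507 to 68260600 in aged bleo.

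Calcineurin is a phosphatase made of a catalytic A subunit (Ppp3ca, Ppp3cb, or Ppp3cc) and a calcium-binding regulatory B subunit (Ppp3r1, or Ppp3r2 in testis), and it is switched on by calcium-bound calmodulin. It removes phosphates from the cytoplasmic factors NFATc1 to NFATc4, which then enter the nucleus and bind DNA often together with AP-1, while kinases such as GSK3, DYRK, and CK1 send them back out. RCAN proteins bind and restrain calcineurin, and Rcan1 is itself a target of NFAT. NFAT5 shares the DNA-binding domain but responds to osmotic stress rather than to calcineurin. The study asked about the kinase PIM1 and NFATc1 in aged fibrotic lungs, with young mice as a comparison, and this series holds no young libraries. The question here was which transcripts of the module differed between aged bleo and aged sham.

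Levels within 1 gene are given as CPM (counts scaled to library size after TMM normalization), and levels between genes as deposited FPKM, which are scaled to gene length. Differences are log2 fold changes of aged bleo over aged sham from edgeR's quasi-likelihood test, and FDR is the Benjamini-Hochberg adjusted p over the 16877 genes tested. Following the study's thresholds, a gene was called when its FDR was under 0.10 and its fold change over 1.5. Of the 10 genes, 1 was called, Rcan2, which was lower in aged bleo, and none was called higher. Over all genes tested, 23.8% were called, 12.3% higher and 11.5% lower. An FDR under 0.10 at any fold was reached by 4 of the 10 (Ppp3r1 and Nfatc3 higher, Rcan1 and Rcan2 lower), against 44.8% of all genes (23.4% higher and 21.4% lower). The median size of the log2 difference, without its sign, was 0.18 over the 10 genes and 0.29 over all genes tested.

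Transcripts of other cell types varied between libraries. The fibroblast genes were abundant in every library, at a summed level of 24503 to 30252 CPM for 7 genes in aged sham and 54419 to 71851 CPM in aged bleo, with 3 of 7 higher and 2 lower. The higher genes were the collagen genes Col1a1, Col1a2, and Col3a1, which made up most of the sum in both groups. The lower genes were Dcn and Tcf21, and Pdgfra and Lum were not called. Pan-leukocyte transcripts (1 of 6 called, higher) summed to 137 to 483 CPM in aged sham, against 142 to 747 CPM after bleomycin, and they were highest in aged sham 4 and aged bleo 4. The same libraries had the most neutrophil transcripts (0 of 6 called, 169.5 to 1017 CPM and 84.8 to 905 CPM) and T and NK cell transcripts (0 of 5 tested called, 4.56 to 12.5 CPM and 1.10 to 26.7 CPM), with Cd3g or Gzma at 0 in some library. Of the macrophage genes, 4 of 7 were higher and 3 (Csf1r, Marco, and Itgax) were not called, and their summed level was 138 to 272 CPM in aged sham, against 450.4 to 1425 CPM after bleomycin, mostly Lyz2 (117 ± 33.6 and 628 ± 303 CPM). The immediate early genes, which respond within minutes to stress and tissue digestion, were all lower (8 of 8, 14242 to 19017 CPM against 5268 to 11390 CPM). B cell genes were lower (4 of 4, 3.21 to 10.6 CPM against 0.930 to 2.42 CPM). Of the endothelial genes, 1 of 6 was higher and 1 lower (159.9 to 194 CPM against 23.7 to 66.0 CPM, mostly Tek), and of the smooth muscle and pericyte genes 2 of 6 were lower (2544 to 5174 CPM against 1765 to 2832 CPM). No epithelial (0 of 5, 6.56 to 78.8 CPM against 12.2 to 46.7 CPM) or mesothelial gene (0 of 3, 18.9 to 62.7 CPM against 22.3 to 87.7 CPM) was called.

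Rcan2 (ENSMUSG00000039601, GRCm38 chromosome 17, 43801851 to 44039516), which encodes a calcineurin regulator also known as calcipressin, was the gene with the largest difference of the 10. Its level was 60.1, 84.8, 73.6, and 66.0 CPM in aged sham 1 to 4 and 35.9, 43.3, 25.8, 17.2, and 26.5 CPM in aged bleo 1 to 5. Every aged bleo library was below every aged sham library, with aged bleo 2 closest to aged sham and aged bleo 4 farthest from it. The means were 71.1 ± 10.7 CPM (SD, n = 4) in aged sham, against 29.7 ± 10.1 CPM (SD, n = 5) in aged bleo, a 2.39-fold lower level (log2 fold change -1.26, standard error [SE] 0.24, 95% interval -1.79 to -0.73, FDR 0.00456). In sorted bulk cells, fewer cells that express a gene and less RNA per cell cannot be told apart. The names of all aged sham libraries and of aged bleo 4 end in 4, while those of the other aged bleo libraries do not. The labels do not say what this number stands for. Its part in the Rcan2 difference, or in any other difference between the groups given here, was not tested.

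The genes outside the module whose levels ran closest to those of Rcan2 over the 9 libraries were Adhfe1, Smoc1, and Cystm1. Their log2 CPM, centred on each gene's mean, differed from that of Rcan2 by a root mean square of 0.140, 0.143, and 0.145, while Rcan2 varied around its own mean by 0.747. The search covered 15260 genes with a mean of at least 1 CPM. It used both groups together, so a lower level in aged bleo follows from how these genes were picked. Smoc1, a secreted calcium-binding matrix protein, was the most abundant of these genes, at 80.6 ± 13.8 CPM (SD, n = 4) in aged sham, against 35.0 ± 14.7 CPM (SD, n = 5) in aged bleo.

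Rcan1 (ENSMUSG00000022951, chromosome 16, 92391953 to 92466146), the feedback inhibitor of calcineurin, was lower by a smaller margin. Its level was 152, 132, 138, and 123 CPM in aged sham 1 to 4 and 106, 115, 128, 83.8, and 112 CPM in aged bleo 1 to 5. The groups overlapped, as aged bleo 3 lay above aged sham 4, and aged bleo 4 was again the lowest library. The means were 136 ± 12.2 CPM (SD, n = 4) and 109 ± 16.1 CPM (SD, n = 5), with an FDR under 0.10 but a fold change of only 1.25 (log2 fold change -0.32, SE 0.12, FDR 0.0602). The FDR was 0.151 without aged sham 1, 0.108 without aged sham 3, and 0.107 without aged bleo 1, and it was 0.0409 without aged sham 4 and aged bleo 4 together. The immediate early genes, all 8 of which were lower, were also at their lowest in aged bleo 4, with a summed level of 5268 CPM, and their part in the Rcan1 difference was not tested.

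Rcan1 is transcribed from more than 1 start site, and an internal site is known for responding to calcineurin and NFAT. The deposited counts sum all transcripts of a gene, so they do not show which start site was used. The 250 bases before each RefSeq start site of Rcan1 (build GRCm38.p6, sequence along the transcribed strand) are shown because they differ in the NFAT core motif GGAAA, and the last start site of Rcan2, the called gene, is shown beside them as the only one of that gene's windows that holds no annotated exon. Capitals mark GGAAA or its reverse complement TTTCC.
Rcan1 internal start, chr16:92400079-92400328, minus strand: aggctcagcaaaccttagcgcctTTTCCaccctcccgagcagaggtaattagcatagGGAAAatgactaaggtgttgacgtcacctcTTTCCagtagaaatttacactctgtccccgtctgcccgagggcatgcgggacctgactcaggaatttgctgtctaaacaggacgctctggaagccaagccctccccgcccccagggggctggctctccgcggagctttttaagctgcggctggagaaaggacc
Rcan1 distal start, chr16:92466170-92466419, minus strand: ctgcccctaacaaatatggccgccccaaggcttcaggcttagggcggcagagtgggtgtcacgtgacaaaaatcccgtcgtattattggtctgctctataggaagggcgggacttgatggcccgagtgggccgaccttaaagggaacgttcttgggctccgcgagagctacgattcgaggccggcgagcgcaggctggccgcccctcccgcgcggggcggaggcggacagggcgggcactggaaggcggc
Rcan2 last start, chr17:43952749-43952998, plus strand: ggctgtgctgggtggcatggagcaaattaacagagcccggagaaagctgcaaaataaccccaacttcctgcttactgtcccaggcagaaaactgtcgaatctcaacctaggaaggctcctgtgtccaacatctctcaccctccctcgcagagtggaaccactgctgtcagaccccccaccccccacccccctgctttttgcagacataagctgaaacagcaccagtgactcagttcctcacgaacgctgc

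The internal Rcan1 window held 3 matches to GGAAA on either strand, which began 227, 193, and 163 bases before the start site, and the distal Rcan1 window held 0. Of the 3 Rcan2 windows, the first, which is not printed because it reaches into an annotated exon, held 2 matches, which began 238 and 150 bases before its start site, and the other 2 windows held 0. Among 32851 RefSeq promoter windows of the same length, 55.6% held at least 1 match and 6.39% at least 3. RefSeq windows were found for 8 of the 10 genes, 13 windows in all, and 8 of these held a match. Nfatc4, Ppp3cb, and 1 window of Nfatc2 also held 3 matches, although none of these genes had an FDR under 0.10. A match describes these letters and does not show that a factor was bound.

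On the scale of gene length, Rcan1 made up most of the RCAN transcripts in every library, and its share of their summed FPKM was 68.5 ± 3.72% (SD, n = 4) in aged sham and 76.4 ± 3.46% (SD, n = 5) in aged bleo. The share of Rcan2 was 24.0 ± 3.45% in aged sham and 13.8 ± 3.50% in aged bleo, without overlap, and the ratio of Rcan1 to Rcan2 FPKM was 2.32 to 3.78 in aged sham and 3.95 to 7.42 in aged bleo. The summed FPKM of the 3 RCAN genes was 33.3 ± 2.36 in aged sham and 24.4 ± 2.97 in aged bleo. Rcan3, the paralog outside the 10 genes, was at 30.3 ± 1.15 CPM and 28.3 ± 3.01 CPM (log2 fold change -0.099, SE 0.084, FDR 0.389).

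Of the calcineurin subunits, the regulatory subunit gene Ppp3r1 (ENSMUSG00000033953, chromosome 11, 17159263 to 17200375) was higher in aged bleo, and the catalytic subunit genes were not past the FDR threshold. Ppp3r1 was at 96.1, 93.7, 97.3, and 96.5 CPM in aged sham 1 to 4 and at 119.6, 112, 120.1, 137, and 148 CPM in aged bleo 1 to 5. It had the tightest aged sham group of the 10 genes, and every aged bleo library lay above it. The means were 95.9 ± 1.53 CPM (SD, n = 4) and 127 ± 14.6 CPM (SD, n = 5), a 1.33-fold higher level that did not reach the fold threshold (log2 fold change 0.41, SE 0.088, 95% interval 0.21 to 0.60, FDR 0.00803). Rcan2 and Ppp3r1 were the 2 of 10 genes whose groups did not overlap, against 32.2% of all genes tested (16.1% in each direction). In the GENCODE M21 annotation, 14.3% of the exon bases of Ppp3r1 (462 of 3228) are shared with Wdr92 on the same strand, which was at 25.3 ± 1.27 CPM in aged sham, against 31.9 ± 3.07 CPM after bleomycin (log2 fold change 0.34, SE 0.081, FDR 0.0126), so reads in the shared bases cannot be told apart.

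Ppp3ca (ENSMUSG00000028161, chromosome 3, 136670124 to 136937727), encoding the catalytic subunit A alpha, ranged from 61.8 to 74.3 CPM in aged sham, and the aged bleo range was 71.7 to 79.4 CPM. Its means of 67.5 ± 6.10 CPM (SD, n = 4) and 75.1 ± 3.31 CPM (SD, n = 5) did not differ past the threshold (log2 fold change 0.15, SE 0.073, FDR 0.127). Ppp3cb (ENSMUSG00000021816, chromosome 14, 20499364 to 20546573), encoding A beta, had the narrowest interval of the 10 genes (log2 fold change 0.010, SE 0.064, 95% interval -0.13 to 0.15, FDR 0.919). Ppp3cc, the A gamma gene outside the 10, was at 13.7 ± 1.58 CPM and 12.7 ± 0.714 CPM (log2 fold change -0.11, SE 0.093, FDR 0.367), and Ppp3r2 had at most 3 counts in any library and was not tested. By FPKM, Ppp3cb held 45.5 ± 1.40% of the catalytic transcripts in aged sham and 44.5 ± 1.89% in aged bleo, Ppp3ca 34.7 ± 1.60% and 37.6 ± 1.82%, and Ppp3cc 19.9 ± 1.49% and 17.9 ± 1.08%. The ratio of Ppp3r1 FPKM to the summed FPKM of the 3 catalytic genes was 0.779 to 0.884 in aged sham and 0.970 to 1.23 in aged bleo.

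**Figure D1:**
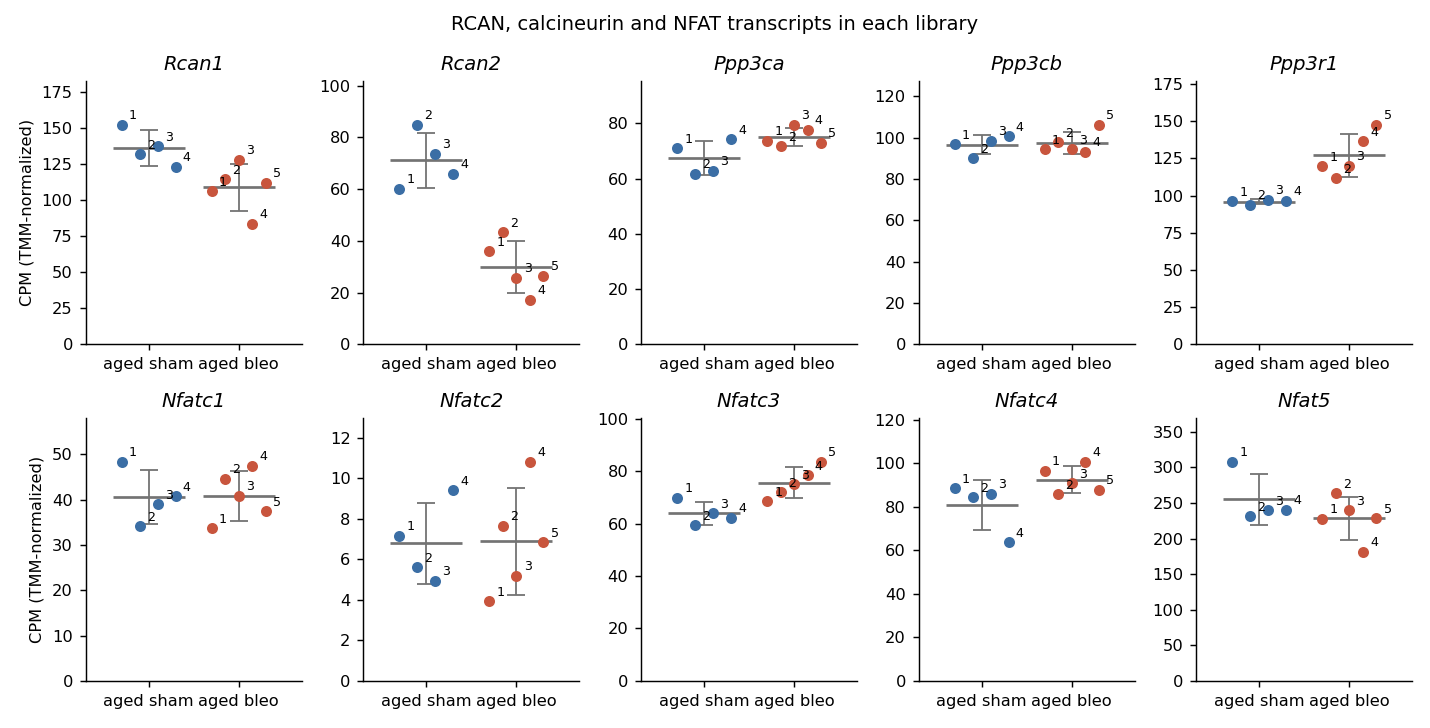
TMM-normalized CPM of the 10 genes (vertical axes from 0, a different scale for each gene) in aged sham (blue) and aged bleo (red) libraries, where each point is 1 library with its number, horizontal lines are means, and error bars are SDs. Rcan2 points of aged bleo (17.2 to 43.3 CPM) all lie below those of aged sham (60.1 to 84.8 CPM), Ppp3r1 points all lie above, and the other genes overlap.

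Nfatc1 (ENSMUSG00000033016, chromosome 18, 80606205 to 80713071), which encodes the factor that the study described as a target of PIM1, had group means that differed by less than the spread between libraries. It was at 48.4, 34.1, 39.0, and 40.7 CPM in aged sham 1 to 4 and at 33.7, 44.6, 40.9, 47.5, and 37.4 CPM in aged bleo 1 to 5. The lowest and the second highest of the 9 libraries were both aged bleo, and the highest was aged sham 1. The means were 40.6 ± 5.91 CPM (SD, n = 4) and 40.8 ± 5.50 CPM (SD, n = 5), with a log2 fold change of 0.0094 (SE 0.13, 95% interval -0.27 to 0.29, FDR 0.963). The interval lies inside the 1.5-fold threshold of 0.585 in either direction, as it did for 6 of the 10 genes (Nfatc1, Nfatc3, Nfatc4, Nfat5, Ppp3ca, and Ppp3cb). The counts measure transcript level and not the amount, phosphorylation, or nuclear entry of the protein.

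Nfatc3 (ENSMUSG00000031902, chromosome 8, 106059603 to 106130537) was the NFAT factor with the smallest FDR. Its level was 69.9, 59.4, 64.0, and 62.2 CPM in aged sham 1 to 4 and 68.5, 72.0, 75.1, 78.5, and 83.6 CPM in aged bleo 1 to 5. The groups overlapped at 1 library on each side, aged sham 1 and aged bleo 1. The means were 63.9 ± 4.44 CPM (SD, n = 4) and 75.6 ± 5.83 CPM (SD, n = 5), a 1.18-fold difference (log2 fold change 0.24, SE 0.077, FDR 0.0360). The FDR was 0.102 without aged sham 2 and 0.154 without aged sham 4 and aged bleo 4 together. In the GENCODE M21 annotation, whose Nfatc3 model of 11726 exon bases is longer than the deposited one of 6014 bases, 219 exon bases lie opposite those of Esrp2 on the other strand. Whether the deposited model holds these bases was not tested, and without a known strand setting such reads cannot be told apart.

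Nfatc4 (ENSMUSG00000023411, chromosome 14, 55824795 to 55833943) ranged from 63.6 to 88.6 CPM in aged sham, and the aged bleo range was 85.8 to 101 CPM. Its means of 80.6 ± 11.5 CPM (SD, n = 4) and 92.3 ± 6.17 CPM (SD, n = 5) did not differ past the threshold (log2 fold change 0.20, SE 0.10, FDR 0.170). Aged sham 4, at 63.6 CPM, was far below the rest of its group, and without it the log2 fold change was 0.095. It was 0.046 without aged sham 4 and aged bleo 4 together.

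Nfatc2 (ENSMUSG00000027544, chromosome 2, 168476410 to 168601657), the NFAT factor best known from T cells, was the scarcest of the 10 genes. It was at 7.16, 5.61, 4.95, and 9.42 CPM in aged sham 1 to 4 and at 3.94, 7.66, 5.19, 10.8, and 6.83 CPM in aged bleo 1 to 5. Aged sham 4 and aged bleo 4 were the highest of their groups, as they were for the pan-leukocyte genes (483 and 747 CPM), and the part of leukocyte transcripts in the Nfatc2 level was not tested. The means were 6.78 ± 1.99 CPM (SD, n = 4) and 6.89 ± 2.63 CPM (SD, n = 5), and the interval was the widest of the 10 genes (log2 fold change 0.024, SE 0.30, 95% interval -0.64 to 0.69, FDR 0.960). Without aged bleo 4 the log2 fold change was -0.21, and without aged sham 4 and aged bleo 4 together it was -0.017.

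Among the NFATc factors, the order by FPKM was Nfatc4, Nfatc3, Nfatc1, and Nfatc2 in both groups. Nfatc4 held 54.4 ± 4.24% of their summed FPKM in aged sham (SD, n = 4) and 55.1 ± 2.67% in aged bleo (SD, n = 5), and Nfatc3 held 29.0 ± 1.92% and 30.2 ± 2.08%. Nfatc1 held 14.9 ± 1.87% and 13.2 ± 1.49%, and Nfatc2 1.78 ± 0.663% and 1.55 ± 0.517%. The summed FPKM was 15.4 ± 1.58 in aged sham and 17.9 ± 1.46 in aged bleo.

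**Figure D2:**
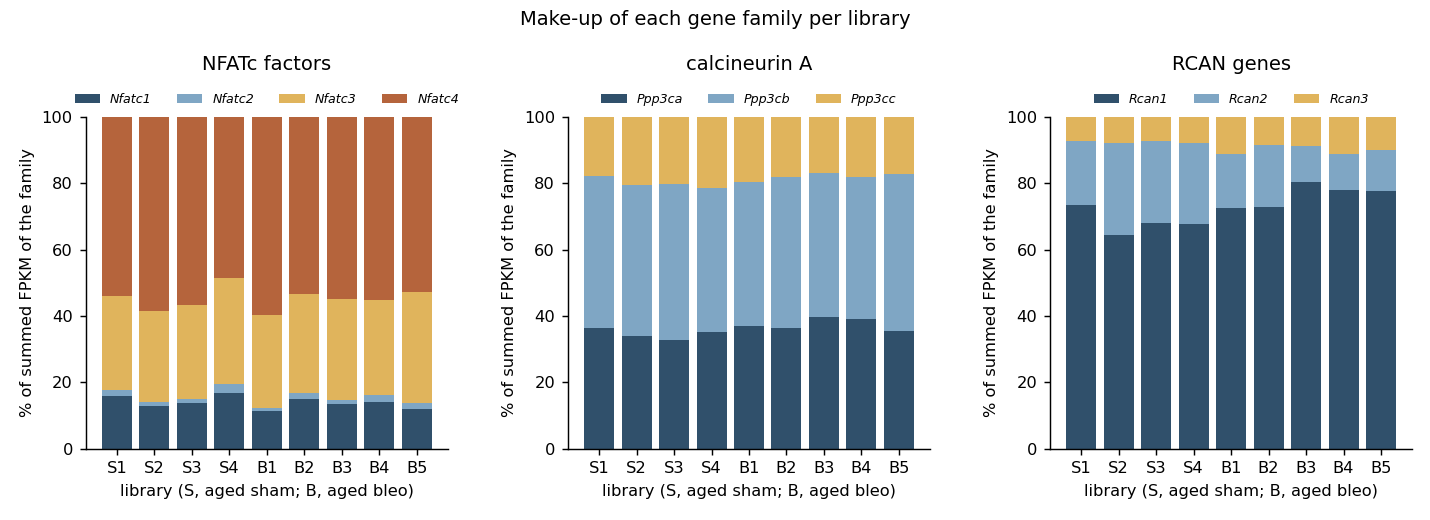
Share of each gene in the summed deposited FPKM of its family (vertical axes, percent) for the NFATc factors, the calcineurin A genes, and the RCAN genes in each library (S1 to S4, aged sham, and B1 to B5, aged bleo). Nfatc4 and Ppp3cb are the largest parts of the NFATc and calcineurin A families throughout, and the Rcan2 part is 24.0 ± 3.45% in aged sham and 13.8 ± 3.50% in aged bleo.

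Nfat5 (ENSMUSG00000003847, chromosome 8, 107293470 to 107379517), the osmotic stress factor, had the most counts of the 10 genes, at 255 ± 35.7 CPM (SD, n = 4) in aged sham, against 228 ± 29.8 CPM in aged bleo (SD, n = 5). Its transcript model is also the longest of the 10, at 18378 bases, and per length it was at 5.82 ± 0.803 and 5.33 ± 0.567 FPKM, below Nfatc4. The libraries ranged from 232 to 308 CPM in aged sham, and the aged bleo range was 182 to 264 CPM, and the difference did not pass the threshold (log2 fold change -0.16, SE 0.13, FDR 0.350). The highest library was aged sham 1, and without it the log2 fold change was -0.056.

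By FPKM in aged sham, Rcan1 (22.8 ± 2.17) stood above Ppp3r1 (12.5 ± 0.224) in all 4 libraries, and both stood above the other 8 genes. Nfatc4 (8.43 ± 1.30), Rcan2 (7.98 ± 1.30), Ppp3cb (6.72 ± 0.249), Nfat5 (5.82 ± 0.803), Ppp3ca (5.13 ± 0.383), and Nfatc3 (4.45 ± 0.305) followed, and each overlapped its neighbour in this order. Nfatc1 (2.29 ± 0.320) and Nfatc2 (0.268 ± 0.0738) were each separated from the gene above. In aged bleo, Rcan1 (18.6 ± 2.29) and Ppp3r1 (17.0 ± 2.30) overlapped, with Rcan1 higher in 3 of 5 libraries. Rcan2 moved from the fourth to the eighth place (3.40 ± 1.10) and overlapped both Nfat5 above it and Nfatc1 (2.36 ± 0.347) below it.

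**Figure D3:**
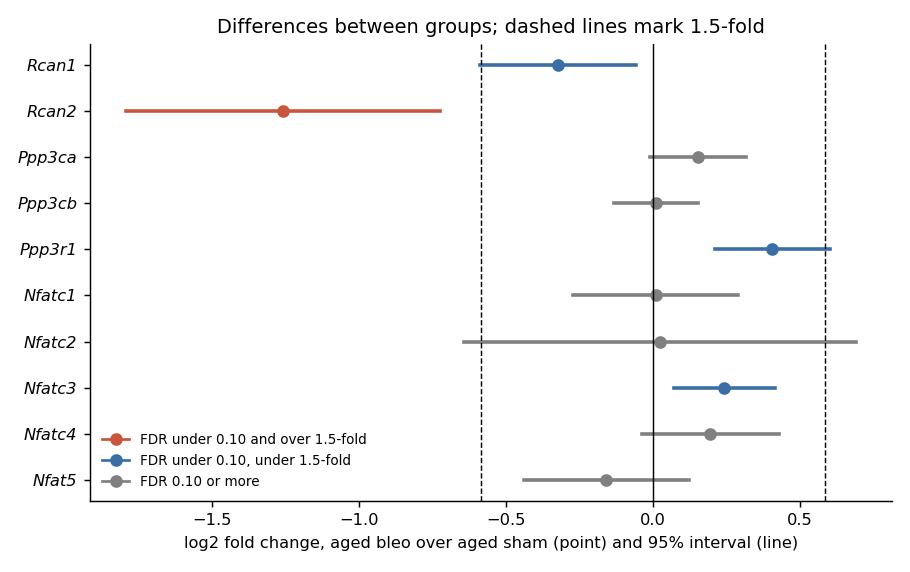
Log2 fold change of aged bleo over aged sham (points) with its 95% interval from edgeR's quasi-likelihood test (lines) for the 10 genes, with dashed lines at the 1.5-fold threshold. Rcan2 (red, -1.26) is past both thresholds, Rcan1, Ppp3r1, and Nfatc3 (blue) are past the FDR threshold alone, and Nfatc1 is centred on 0.0094.

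The rest of the pathway was described by 8 lists with 73 genes, of which 66 were tested. Of these, 11 were higher and 11 lower past the thresholds and 44 were not called, beside 12.3% higher and 11.5% lower over all genes tested, the background for the count of each list. The median log2 fold change was -0.011, beside 0.0064 over all genes tested. The lists cover calcium entry and release, calcineurin partners, NFAT kinases, NFAT cofactors, and 4 sets of target genes.

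Of the 14 genes of calcium entry and release, 10 were not called, 3 rose after bleomycin, and 1 fell. Trpc6, a receptor-operated calcium channel, had the largest difference of the pathway, from 0.370 to 0.824 CPM in aged sham to 7.30 to 11.4 CPM in aged bleo (log2 fold change 4.09, SE 0.27, FDR 2.32e-05). Cacna1c, the pore subunit of the L-type calcium channel, rose from 52.4 ± 7.59 to 114 ± 17.1 CPM (log2 fold change 1.12, SE 0.14). The store-operated channel gene Orai2 rose from 11.7 ± 1.79 to 24.7 ± 2.97 CPM (log2 fold change 1.08, SE 0.13), while Stim1, the store sensor that opens Orai channels, fell from 88.3 ± 5.79 to 55.1 ± 14.4 CPM (log2 fold change -0.68, SE 0.18, FDR 0.0176). The groups did not overlap for these 4 genes, which were named because they were called, beside 32.2% of all genes tested.

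Of the 13 tested calcineurin partners, 2 were lower, none was higher, and 11 were not called. Akap5, an anchoring protein that holds calcineurin near membrane channels, fell from a range of 2.76 to 8.15 CPM to one of 1.32 to 1.94 CPM (log2 fold change -1.88, SE 0.30, FDR 0.00206). Homer2, a scaffold that competes with calcineurin for NFAT, fell from 4.76 ± 0.928 to 1.98 ± 0.971 CPM (log2 fold change -1.26, SE 0.38, FDR 0.0304). Of the 14 kinases that phosphorylate NFAT proteins, 13 were not called, and Pim1 was lower. Pim1, the kinase that the study set beside NFATc1, was at 199 ± 22.3 CPM in aged sham, against 127 ± 31.5 CPM after bleomycin, without overlap (log2 fold change -0.65, SE 0.18, FDR 0.0245). The study reported Pim1 as higher in aged than in young uninjured fibroblasts. That is a different comparison, which these libraries, all from aged mice, cannot repeat.

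Of the 8 cofactors that bind DNA with NFAT, 1 was higher and 4 lower. The 4 lower genes were the AP-1 genes Fos, Junb, Jun, and Fosl2, with log2 fold changes of -0.87, -0.83, -0.70, and -0.65. Mef2c, a MADS-box factor, rose from a range of 42.3 to 48.8 CPM to one of 68.2 to 86.0 CPM (log2 fold change 0.76, SE 0.080, FDR 0.000229). Fos and Junb are also in the immediate early list, in which all 8 genes were lower, and their relation to the rest of that list was not tested.

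Of the 6 genes that NFAT5 is known to drive under osmotic stress, 3 were called higher, none was called lower, and the Nfat5 transcript itself was not past the threshold. The 3 called genes take up osmolytes: Slc6a6, the taurine transporter, rose from 120.0 ± 22.2 to 404 ± 43.1 CPM (log2 fold change 1.75, SE 0.14, FDR 5.41e-05), and Slc5a3, the myo-inositol transporter, from 27.3 ± 5.30 to 78.0 ± 11.2 CPM (log2 fold change 1.51, SE 0.15, FDR 0.000207). Slc6a12, the betaine transporter, was scarce, at 0.233 ± 0.0974 and 0.758 ± 0.229 CPM (log2 fold change 1.69, SE 0.35, FDR 0.00649). It averaged 30.9 counts and passed the filter of 25 only through the aged bleo libraries, which favoured its call as higher. Akr1b3, which encodes the sorbitol-producing aldose reductase, went the other way past the FDR threshold but under 1.5-fold, at 70.4 ± 8.78 and 53.1 ± 7.11 CPM (log2 fold change -0.41, SE 0.11, FDR 0.0228). Hspa4l and Pnpla6 had log2 fold changes of 0.0064 and 0.018. Of the 5 early targets of calcineurin and NFAT, 2 were lower and none higher. Ptgs2, the inducible cyclooxygenase, fell from 1208 ± 177 to 428 ± 93.2 CPM (log2 fold change -1.50, SE 0.18), and the nuclear receptor Nr4a1, also an immediate early gene, from 2131 ± 427 to 1076 ± 312 CPM (log2 fold change -0.99, SE 0.23). The immediate early list, in which all 8 genes were lower, holds Nr4a1 but not Ptgs2, and its relation to both falls was not tested.

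**Figure D4:**
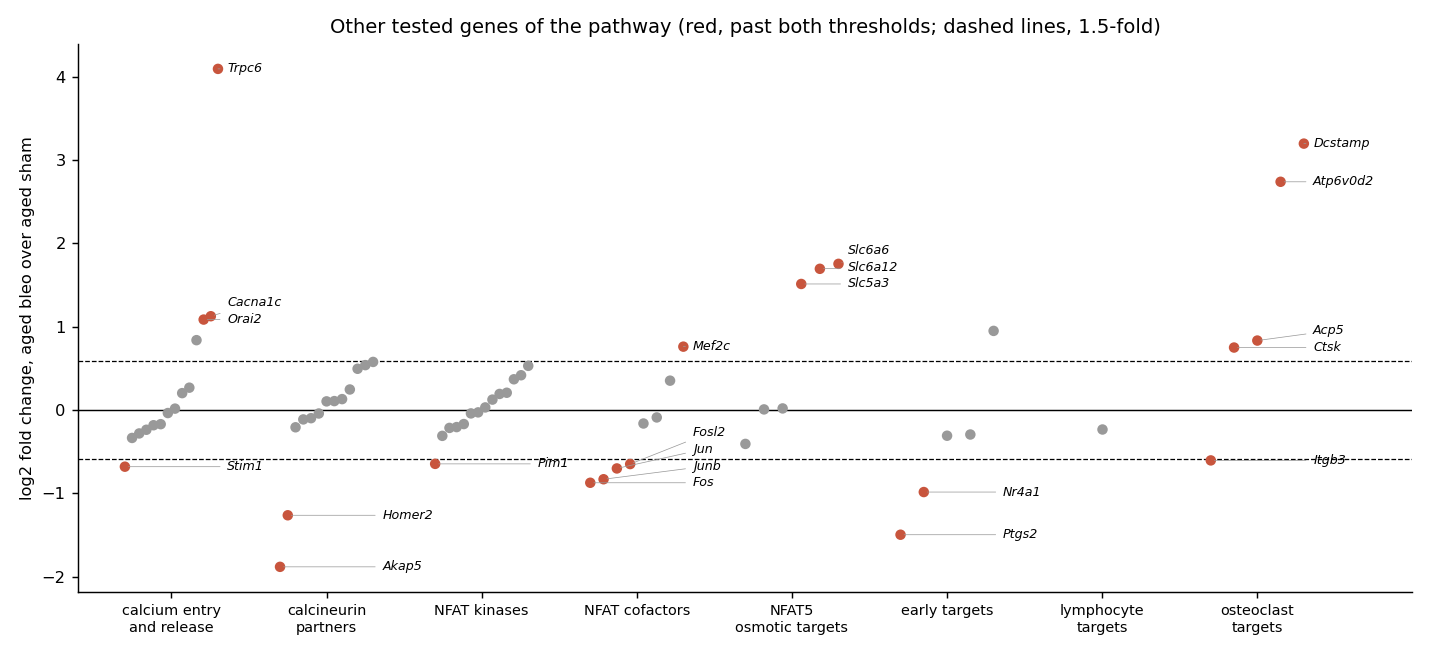
Log2 fold change of aged bleo over aged sham (vertical axis) for the 66 tested genes of the 8 pathway lists, 1 point per gene, sorted within each list. Red points are the 22 genes past both thresholds, from Trpc6 at 4.09 to Akap5 at -1.88, and dashed lines mark 1.5-fold.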

How the data were processed

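RNA-Seq of sorted lung fibroblasts was analysed in 4 aged sham and 5 aged bleo libraries, grouped by their titles. The authors deposited raw read counts for 43346 genes together with FPKM values. The submitters' processing notes name bcl2fastq, STAR 2.5.2b, featureCounts of Subread, mm10, and GRCm38, and the strand setting is not given in the sources used here. The total behind the deposited FPKM was 2.27 to 2.42 times each library's count sum. No libraries of a group were duplicates (chi-square per degree of freedom 28.7 to 412), and nothing in the labels says more of their origin, so p-values measure the spread between these libraries.

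Genes averaging 25 counts or more were tested by edgeR 4.0.16 (TMM, glmQLFit and glmQLFTest, no covariate, R 4.3.3), whereas the study used a moderated test. A call required an FDR under 0.10 together with a change of over 1.5-fold. Each SE is the log2 fold change divided by the root of its F statistic. The search for like genes used log2 CPM with a prior count of 2. A count of 0 allows up to 3 counts, or 0.0409 to 0.0605 CPM, for counting error only. Scripts were tested on simulated data. Alternatives were DESeq2 1.42.0, limma 3.58.1 on log2 CPM and on log2(FPKM + 0.1) or log2(FPKM + 1), other normalizations and filters, a replicate block, and left-out libraries.

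The 10 genes and all lists were chosen with earlier results of these data known. Named besides them were the called genes of the pathway lists (at most 4 per list and direction, by size of change), Ppp3cc, Ppp3r2, Rcan3, Pim1, and the 3 genes closest to each called member. Wdr92 was named after its shared exon was seen. Tek, Il4, Lyz2, Csf1r, Marco, Itgax, Akr1b3, Hspa4l, Pnpla6, and the fibroblast genes were named after their values were seen. Promoter sequences came from RefSeq on GRCm38.p6, and Nfatc1 and Ppp3ca had no entry.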

Additional observations from a re-analysis of the deposited data

Results flagged for a closer look

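Among the 20 sets of libraries checked (10 genes in each group), 2 held a library that stood apart from the others of its group, where chance gives about 1 in 20. Nfatc4 was at 63.6 CPM in aged sham 4 and at 84.4 to 88.6 CPM in the other aged sham libraries, and leaving out aged sham 4 gave a log2 fold change of 0.095 (edgeR, FDR 0.372) in place of 0.20. Nfat5 was at 308 CPM in aged sham 1 and at 232 to 240.3 CPM in the other aged sham libraries, and leaving out aged sham 1 gave a log2 fold change of -0.056 (edgeR, FDR 0.746) in place of -0.16. Aged sham 1 was also the highest aged sham library for Nfatc1, Nfatc3, Nfatc4, and Rcan1.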

How the results depend on the processing

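Over 19 alternatives, Rcan2 was called lower in every one (log2 fold change -1.43 to -1.06), none of the other 9 genes was called, and 175 of 190 log2 fold changes of the 10 genes kept their sign and call. The 15 that changed sign belonged to genes near 0. Nfatc1 ranged from -0.067 to 0.10 when 1 library was left out and was -0.067 without aged sham 4 and aged bleo 4, the libraries with the most leukocyte transcripts. Nfatc2 ranged from -0.21 to 0.22 when 1 library was left out and was -0.017 both with limma-trend on log2 CPM and without aged sham 4 and aged bleo 4. Ppp3cb ranged from -0.023 to 0.029 when 1 library was left out. The replicate numbers are shared between the groups, but only 1 of the 4 same-numbered pairs deviated together by a correlation over 0.1 (-0.13 to 0.33), and 1 of 4 aged sham libraries correlated best with its own number. With the replicate block, 3536 genes were called, Nfatc2 was at -0.029, Ppp3cb at -0.023, and the FDR of Nfatc3 was 0.155. The count of genes called over the table, 4022, was 1785 with limma-trend on log2(FPKM + 1), whose pseudocount reduces the fold of genes at low FPKM, and 3525 to 4597 when 1 library was left out. Members called stayed at 1 and pathway genes called at 17 to 25. With 4 and 5 mice, the interval of Nfatc2 does not exclude a 1.5-fold difference in either direction.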

Other observations

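NFAT factors are best known for target genes in lymphocytes and osteoclasts, and these were examined as further lists. Of 5 lymphocyte targets (Il2, Il4, Ifng, Cd40lg, and Fasl), 1 passed the filter on low counts and none was called. Il4, the tested gene, had a level of 2.07 ± 0.331 CPM (SD, n = 4) in aged sham, against 1.76 ± 0.331 CPM in aged bleo (SD, n = 5), with a log2 fold change of -0.23 (edgeR, FDR 0.359). Of 7 osteoclast targets, 5 were tested, of which 4 were higher and 1 lower, beside 12.3% and 11.5% over all genes tested. Atp6v0d2, a proton pump subunit, rose from 3.56 ± 0.996 to 23.8 ± 6.09 CPM (log2 fold change 2.74, standard error [SE] 0.26), and Dcstamp, a cell fusion protein, ranged from 0.0162 to 0.141 CPM in aged sham and reached 0.167 to 1.98 CPM after bleomycin (log2 fold change 3.20, SE 0.79). Dcstamp averaged 29.4 counts and passed the filter on low counts only through the aged bleo libraries, which favoured its call as higher. Its level was highest in aged bleo 4, the library with the most pan-leukocyte and macrophage transcripts. Acp5 and Ctsk, a phosphatase and a protease of bone resorption, had log2 fold changes of 0.83 and 0.75. The beta 3 integrin gene Itgb3 was lower, at 69.2 ± 4.36 CPM in aged sham, against 45.5 ± 5.15 CPM after bleomycin (log2 fold change -0.61, SE 0.089). Macrophages express several of these genes as well. The sort kept CD45- cells, and pan-leukocyte transcripts summed to 137 to 483 CPM in aged sham and 142 to 747 CPM in aged bleo. Of the macrophage markers, 4 of 7 were higher in aged bleo (summed levels of 138 to 272 CPM against 450.4 to 1425 CPM, mostly Lyz2), and their part in these values was not tested.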
